A study of Caenorhabditis elegans with 12 samples.

Results

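The genes described here are the MATH and BTB domain genes of *Caenorhabditis elegans*, taken as every gene with counts whose WormBase name is *math* or *bath* followed by a number. There were 92 such genes among the 46778 genes in the tables, 49 *math* genes and 43 *bath* genes. Of these, 73 are annotated as protein-coding, and 19 are pseudogenes, whose names came from RefSeq. RNA was sequenced from whole bodies of adult N2 worms, the standard wild-type laboratory strain, in 4 groups of 3 libraries. Worms given *control(RNAi)*, here called WT, and worms given *lpin-1(RNAi)* were held either on control diets or on glucose-rich diets with 2% added glucose. All groups fed on bacteria that made double-stranded RNA under 10 mM IPTG from the egg stage and went as day 1 adults to plates with 10 μM FUdR, which keeps progeny from hatching. RNAi by feeding lowers a transcript and does not delete the gene. The labels do not say whether the 3 replicates of a group were separate cultures, so the p-values measure the spread between these libraries.

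A MATH domain binds other proteins, and a BTB domain joins proteins to one another and to the cullin CUL-3. Proteins with both domains, which the *bath* genes are named for, can act as adaptors that bring a substrate to a CUL-3 ubiquitin ligase, as MEL-26 does when it marks the microtubule-severing protein MEI-1 for removal after meiosis. The family is greatly expanded in *C. elegans*, and for most members no substrate is known. The gene lowered here, *lpin-1*, encodes Lipin 1, a phosphatidic acid phosphatase that makes diacylglycerol. The comparisons ask how *lpin-1* RNAi, glucose-rich diets and their combination alter the transcripts.

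The authors deposited expected counts per gene, where a read that fits more than 1 gene can be split between genes. Library totals ran from 16546059 to 31534301. Levels are given as counts scaled to library size by TMM (CPM), and differences as log2 fold changes ± SE from edgeR's quasi-likelihood test over 14697 genes, with Benjamini-Hochberg adjustment over all of them. A gene was called when the fold change exceeded 2 and the adjusted p was under 0.05. The level of *lpin-1* itself was 158 ± 12.3 CPM in WT and 89.3 ± 5.01 CPM in *lpin-1(RNAi)* worms on control diets (SD, n = 3). On glucose-rich diets it was 165 ± 15.8 CPM in WT and 112 ± 9.31 CPM in *lpin-1(RNAi)* worms (SD, n = 3). The log2 fold changes were -0.82 ± 0.10 (adjusted p = 1.6e-05) and -0.56 ± 0.10 (adjusted p = 6.1e-04), both under the fold threshold. In *lpin-1(RNAi)* worms *lpin-1* was higher with glucose (0.32 ± 0.10, adjusted p = 0.046). Its interaction did not pass the test (0.26 ± 0.14, adjusted p = 0.59). Whether the partial lowering bears on the comparisons below was not tested.

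The members lie mostly in clusters on the left part of chromosome II. That chromosome holds 79 of the 92, among them 46 of the 49 *math* genes and 33 of the 43 *bath* genes (WBcel235 coordinates). The largest run of members less than 100 kb apart, from 1706709 to 2155220, spans 449 kb and holds 57 members, 43 *math* and 14 *bath* genes, 15 of them pseudogenes. A smaller run just before it, from 1510287 to 1606179, holds 6.

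Many *math* genes had almost no counts in these worms. 3 members, *math-6*, *math-12* and *math-19*, had no count in any library, and 20 more, all *math* genes, never exceeded 10 counts. All 43 *bath* genes exceeded 10 counts in at least 1 library, against 26 of the 49 *math* genes. The longest stretch with almost no counts held 11 neighbours in a row, from *math-11* to *math-25* (1873480 to 1897758, 24.3 kb), with at most 4 counts in any library. A total of 64 members passed the filter on low counts and were tested, 22 *math* and 42 *bath* genes, 9 of them pseudogenes. Of the 28 not tested, 23 never exceeded 10 counts and 5 exceeded 10 counts in too few libraries (*bath-37*, *math-28*, *math-34*, *math-38* and *math-49*). Because a member can pass this filter through the group in which it is high, the 64 are not a neutral sample of the 92.

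The most abundant transcripts were *bath* genes outside the large cluster. Compared per kilobase of exon in WT on control diets, *bath-42* had 115 ± 7.99 CPM per kb and *bath-41* had 111 ± 6.18 (SD, n = 3). These levels overlapped between libraries. They were followed by *bath-40* with 67.5 ± 9.64, *bath-44* with 53.8 ± 3.29 and *math-33* with 53.5 ± 12.2 CPM per kb. *bath-40* overlapped neither *bath-42* nor *bath-44*, whereas *math-33* overlapped both *bath-40* and *bath-44* and could not be ordered against them. The next in order was *bath-30* with 39.6 ± 1.67 CPM per kb, then *bath-15*, *bath-5*, *bath-2* and *bath-28* between 17.9 and 29.4. The highest member of the large cluster was *bath-5* with 28.4 CPM per kb. The median over its 57 members was 1.04 CPM per kb, and that over the 35 members elsewhere was 3.05.

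None of the 5 most abundant members passed the test in any comparison. *bath-42* encodes a protein that binds CUL-3. It had 207, 199.6 and 181 CPM in WT on control diets and 184, 195 and 207 CPM in *lpin-1(RNAi)* worms on control diets, in the order of replicates 1 to 3. On glucose-rich diets it had 219, 207 and 191 CPM in WT and 206, 209 and 198 CPM in *lpin-1(RNAi)* worms. All groups overlapped, and the log2 fold changes were -0.00 ± 0.08 for *lpin-1* RNAi on control diets and 0.07 ± 0.08 for glucose in WT. *bath-41*, *bath-40* and *bath-44* had log2 fold changes between -0.15 and 0.25.

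*math-33* encodes a deubiquitylase, the counterpart of human USP7, that acts on the transcription factor DAF-16. It had 178, 280.4 and 220.1 CPM in WT and 194, 373 and 291 CPM in *lpin-1(RNAi)* worms on control diets. The corresponding values on glucose-rich diets were 269.8, 287 and 245 CPM and 364, 359 and 352 CPM. On control diets the groups overlapped, with 1 low library in the *lpin-1(RNAi)* group, whereas on glucose-rich diets all 3 *lpin-1(RNAi)* libraries were higher. Neither difference passed the test (0.34 ± 0.20, adjusted p = 0.21, and 0.42 ± 0.20, adjusted p = 0.13).

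**Figure D1:**
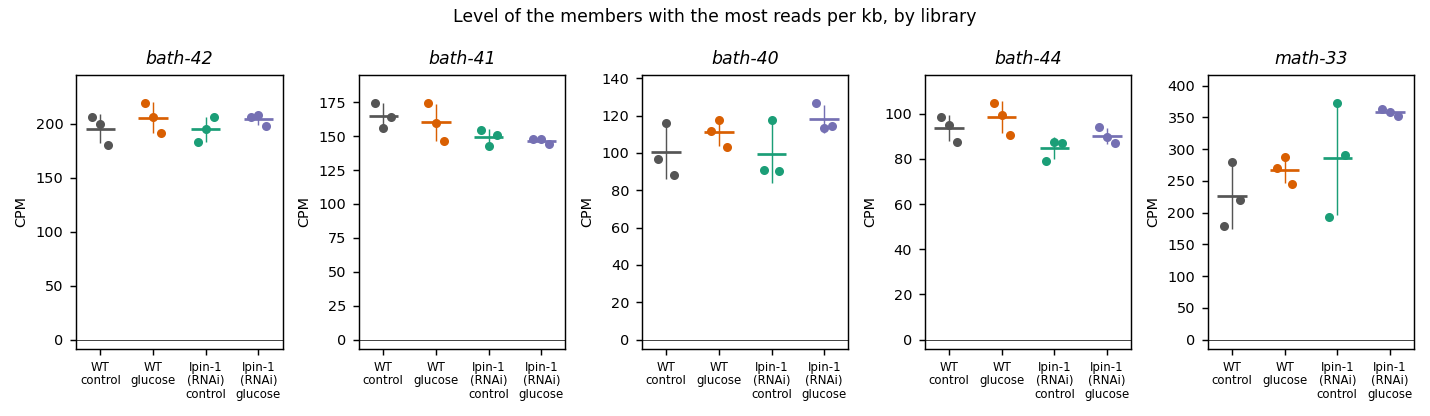
Level in CPM (vertical axes, from 0) of the 5 members with the most reads per kilobase, in the 4 groups. Points are libraries, horizontal lines the means and vertical lines 1 SD (n = 3). The *bath-42* libraries all lie between 181 and 219 CPM, and *math-33* has the widest spread.

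Summed over the family, the *bath* genes took 838 to 911 CPM in the 12 libraries, with group means of 871 ± 16.3 CPM in WT and 854 ± 2.17 CPM in *lpin-1(RNAi)* worms on control diets (SD, n = 3). The *math* genes took 306 to 429 CPM in the WT libraries and 444 to 600 CPM in the *lpin-1(RNAi)* libraries. *math-33* alone contributed 178 to 373 CPM of this sum. On the sum, the *lpin-1(RNAi)* libraries lay above all WT libraries.

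*lpin-1* RNAi on control diets raised 9 members and lowered 2. The 9 called up were 14.1% of the 64 tested, where 10.0% of all tested genes were called up, and the 2 called down were 3.12%, where 5.61% of all genes were. The shares called are thus near the background for the family as a whole. The median log2 fold change was 0.08 over the members and -0.00 over all genes, and 44 of the 64 members lay within 0.5 of 0. By name, 6 of the 22 tested *math* genes and 3 of the 42 tested *bath* genes were called up, and both members called down were *math* genes. By the adjusted p alone, 12 members were up (18.8%, against 19.5% of all genes) and 6 were down (9.38%, against 19.8%).

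On glucose-rich diets *lpin-1* RNAi raised 7 members (10.9%, against 8.04% of all genes) and lowered 2 (3.12%, against 4.2%). All 7 and both of the 2 were also called on control diets. The share of all genes called on both diets is not given, so nothing is read from this overlap. The comparisons on the 2 diets share no library. They are not fully independent, since they came from the same fit and same-numbered libraries tended to deviate together. *math-20* and *math-46* were called on control diets alone. By the adjusted p alone, 9 members were up (14.1%, against 16% of all genes) and 5 were down (7.81%, against 15.8%). The median log2 fold change was 0.04 over the members and 0.03 over all genes.

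**Figure D2:**
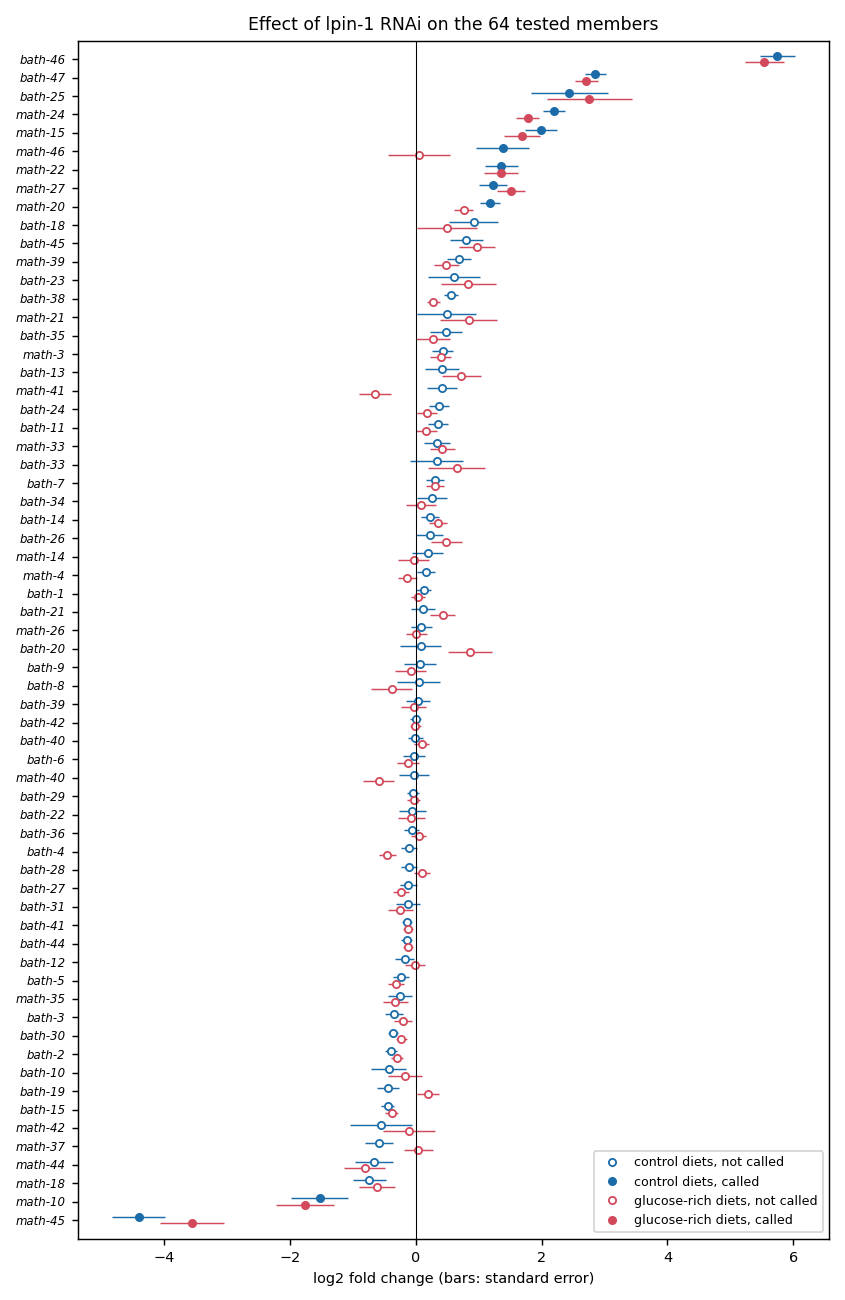
Log2 fold change (horizontal axis) of *lpin-1* RNAi for the 64 tested members, ordered by the value on control diets. Blue is control diets, red is glucose-rich diets, filled points are called and bars are standard errors. Most members lie near 0, *bath-46* stands apart at 5.75 and 5.54, and *math-45* at -4.41 and -3.56.

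The largest rise was that of *bath-46* (WBGene00020325, II 1597906 to 1599488, plus strand), which codes for a MATH and BTB protein. It had 0.193, 0.0727 and 0.209 CPM in WT and 9.80, 8.23 and 7.44 CPM in *lpin-1(RNAi)* worms on control diets. On glucose-rich diets it had 0.128, 0.105 and 0.146 CPM in WT and 7.08, 5.78 and 5.18 CPM in *lpin-1(RNAi)* worms. The gene was close to silent in all 6 WT libraries and clearly present in all 6 *lpin-1(RNAi)* libraries, with no overlap. On control diets 729 counts in *lpin-1(RNAi)* stood against 11 in WT, a ratio of 56.8 after scaling (95% interval 31.5 to 114, counting error alone), and on glucose-rich diets 466 stood against 8, a ratio of 48.4 (24.4 to 113). The fitted log2 fold changes were 5.75 ± 0.28 (adjusted p = 5.0e-09) and 5.54 ± 0.30 (adjusted p = 2.4e-08).

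Its neighbour *bath-47* (WBGene00006464, II 1601811 to 1604621, plus strand) rose as well. It had, on control diets, 2.36, 2.44 and 3.60 CPM in WT and 22.9, 20.0 and 17.7 CPM in *lpin-1(RNAi)* worms, and 1.53, 1.54 and 1.61 CPM and 10.2, 9.79 and 10.8 CPM on glucose-rich diets. Every *lpin-1(RNAi)* library exceeded every WT library. The log2 fold changes were 2.85 ± 0.17 (adjusted p = 2.4e-08) and 2.71 ± 0.18 (adjusted p = 1.3e-07). Within each RNAi group the glucose libraries were the lower ones.

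The minus-strand members that overlap these genes did not pass the test for *lpin-1* RNAi. *bath-26* (II 1599461 to 1600761) overlaps *bath-46* by 28 bases, and *bath-33* (II 1604600 to 1606179) overlaps *bath-47* by 22. *bath-26* had 1.93, 3.05 and 2.55 CPM in WT and 3.26, 2.53 and 3.03 CPM in *lpin-1(RNAi)* worms on control diets (0.22 ± 0.22, adjusted p = 0.48). *bath-33* stayed under 1 CPM in every library (0.33 ± 0.42, adjusted p = 0.58). The libraries were prepared with a stranded kit, but the strand setting of the counting is not given in the sources used here.

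The largest fall was that of *math-45* (WBGene00021772, II 1510287 to 1517454, minus strand), in the same run of 6 members. It had 0.965, 1.85 and 1.97 CPM in WT and 0.0620, 0.0905 and 0.0531 CPM in *lpin-1(RNAi)* worms on control diets. On glucose-rich diets it had 0.575, 0.630 and 0.780 CPM in WT and 0.0837, 0.0340 and 0.0408 CPM in *lpin-1(RNAi)* worms. It was near 0 in all 6 *lpin-1(RNAi)* libraries, and no library overlapped with WT. The 118 counts in WT stood against 6 on control diets, a level 23.0-fold lower after scaling (95% interval 10.2 to 63.8, counting error alone), and 43 against 4 on glucose-rich diets, 12.9-fold lower (4.70 to 49.6). The fitted log2 fold changes were -4.41 ± 0.42 (adjusted p = 2.3e-06) and -3.56 ± 0.51 (adjusted p = 1.1e-04).

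**Figure D3:**
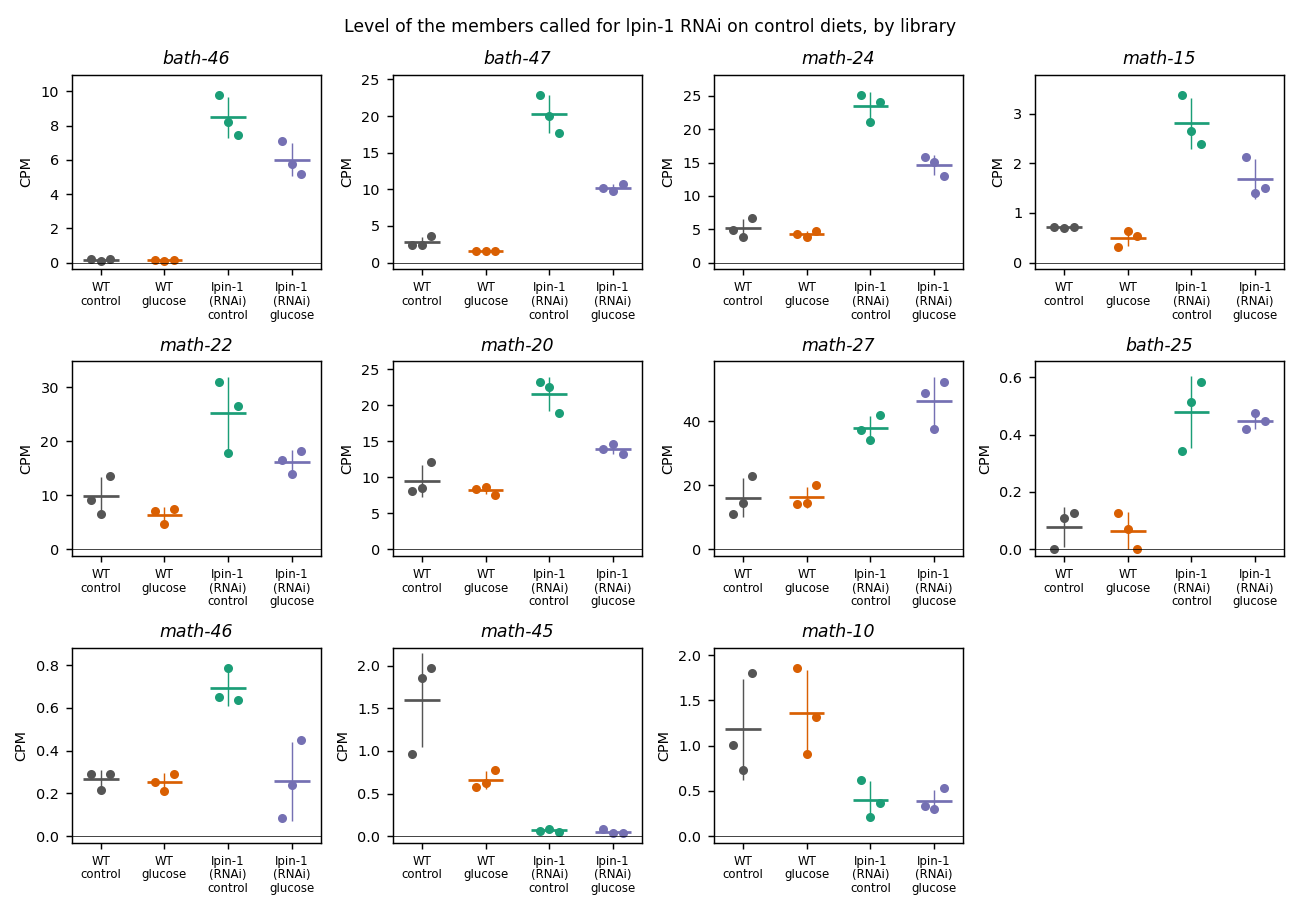
Level in CPM (vertical axes, linear and from 0) of the 11 members called for *lpin-1* RNAi on control diets, in the 4 groups. Points are libraries, horizontal lines the means and vertical lines 1 SD (n = 3). On control diets, each panel shows all 3 *lpin-1(RNAi)* points above, or all 3 below, the WT points. The panels hold only members picked by the call, so this separation adds no support to it.

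In the large cluster, single members rose beside neighbours that were not called or had too few counts to be tested. *math-24* (WBGene00016719, II 1900234 to 1901975) had, on control diets, 4.82, 3.89 and 6.65 CPM in WT and 25.2, 21 and 24.1 CPM in *lpin-1(RNAi)* worms, and 4.22, 3.89 and 4.78 CPM and 15.9, 15.2 and 13 CPM on glucose-rich diets. *math-22* (WBGene00016717, II 1905404 to 1907831) had 9.21, 6.58 and 13.6 CPM and 31, 17.9 and 26.6 CPM on control diets, and 7.03, 4.62 and 7.51 CPM and 16.5, 13.9 and 18.2 CPM on glucose-rich diets. In neither gene did the WT and *lpin-1(RNAi)* groups of the same diet overlap. *math-24* rose by 2.19 ± 0.18 (adjusted p = 4.7e-07) and 1.78 ± 0.18 (adjusted p = 6.5e-06) on the log2 scale, and *math-22* by 1.36 ± 0.27 (adjusted p = 0.0011) and 1.36 ± 0.28 (adjusted p = 0.002). Between them lies *math-23* on the same strand, which had at most 3 counts in any library.

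*math-15* (WBGene00015829, II 1866381 to 1867894) had, on control diets, 0.723, 0.691 and 0.711 CPM in WT and 3.38, 2.65 and 2.39 CPM in *lpin-1(RNAi)* worms, and 0.319, 0.630 and 0.536 CPM and 2.14, 1.39 and 1.51 CPM on glucose-rich diets. It rose without overlap on both diets, by 1.99 ± 0.26 (adjusted p = 4.0e-05) and 1.69 ± 0.28 (adjusted p = 4.7e-04) on the log2 scale. The next gene on the same strand, *math-14*, 1525 bases away, did not pass the test (0.19 ± 0.25, adjusted p = 0.59). The gene after it, *math-10* (WBGene00015839, II 1871542 to 1873348), fell.

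*math-10* had 1.01, 0.727 and 1.80 CPM in WT and 0.620, 0.211 and 0.372 CPM in *lpin-1(RNAi)* worms on control diets. On glucose-rich diets it had 1.85, 0.910 and 1.32 CPM and 0.335, 0.306 and 0.530 CPM. The groups did not overlap, although on control diets the lowest WT library and the highest *lpin-1(RNAi)* library were close. The log2 fold changes were -1.53 ± 0.46 (adjusted p = 0.016) and -1.76 ± 0.46 (adjusted p = 0.011). The call on control diets was lost without WT replicate 3 (adjusted p = 0.093) or without *lpin-1(RNAi)* replicate 2 (adjusted p = 0.071).

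*math-20* (WBGene00016555, II 1996537 to 1998531) had, on control diets, 8.05, 8.47 and 12.1 CPM in WT and 23.3, 22.5 and 18.9 CPM in *lpin-1(RNAi)* worms, and 8.37, 8.72 and 7.60 CPM and 13.9, 14.7 and 13.2 CPM on glucose-rich diets. The groups did not overlap on either diet. The change was 1.18 ± 0.15 (adjusted p = 3.7e-05) on control diets and 0.76 ± 0.16 (adjusted p = 0.0021), under the fold threshold, on glucose-rich diets. The difference between the diets did not pass the test of the interaction (-0.42 ± 0.22, adjusted p = 0.59).

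The pseudogene *math-27* (WBGene00018101, II 1767811 to 1770955) had, on control diets, 11.1, 14.5 and 22.8 CPM in WT and 37.3, 34.2 and 42 CPM in *lpin-1(RNAi)* worms, and 14.2, 14.4 and 20.0 CPM and 48.8, 37.7 and 52.4 CPM on glucose-rich diets. All *lpin-1(RNAi)* libraries were above all WT libraries, with log2 fold changes of 1.22 ± 0.22 (adjusted p = 6.9e-04) and 1.51 ± 0.23 (adjusted p = 1.8e-04). Its counts were fractional in all 12 libraries, as were those of *math-3* and *math-26*, while those of *math-41* were fractional in 11, so reads were divided between genes. The sum of these 4 genes was still fractional in 12 of the 12 libraries at a tolerance of 0.02, so reads were shared with further genes that were not identified. Summed into 1 feature, these 4 genes changed by 0.55 ± 0.17 (adjusted p = 0.018) and 0.61 ± 0.17 (adjusted p = 0.013), under the fold threshold on both diets. In WT on control diets *math-3* and *math-26* had 15.8 to 31.6 CPM, so a rise of *math-27* alone would be diluted in this sum. The sum cannot decide on the call. Because its reads were divided with other genes, the level of *math-27* alone is uncertain.

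The 2 called members outside chromosome II lie on chromosome I and had few counts. *bath-25* (WBGene00020859, I 10876200 to 10877741) had, on control diets, 0, 0.109 and 0.126 CPM in WT and 0.341, 0.513 and 0.584 CPM in *lpin-1(RNAi)* worms, and 0.128, 0.0700 and 0 CPM and 0.419, 0.476 and 0.448 CPM on glucose-rich diets. The *lpin-1(RNAi)* libraries were higher without overlap, with 39 counts against 6 on control diets (ratio 5.57, 95% interval 2.34 to 16.1) and 35 against 4 on glucose-rich diets (ratio 7.28, 2.60 to 28.2). The fitted log2 fold changes were 2.44 ± 0.61 (adjusted p = 0.0062) and 2.76 ± 0.68 (adjusted p = 0.007).

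*math-46* (WBGene00021175, I 3745589 to 3748145) had 0.289, 0.218 and 0.293 CPM in WT and 0.651, 0.784 and 0.638 CPM in *lpin-1(RNAi)* worms on control diets. On glucose-rich diets it had 0.256, 0.210 and 0.292 CPM and 0.0837, 0.238 and 0.448 CPM. Only the *lpin-1(RNAi)* group on control diets stood above the others. It rose by 1.38 ± 0.42 on the log2 scale with *lpin-1* RNAi on control diets (adjusted p = 0.018), a call lost without WT replicate 2 (adjusted p = 0.064) or *lpin-1(RNAi)* replicate 2 (adjusted p = 0.055). On glucose-rich diets the log2 fold change was 0.04 ± 0.49 (adjusted p = 0.96).

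**Figure D4:**
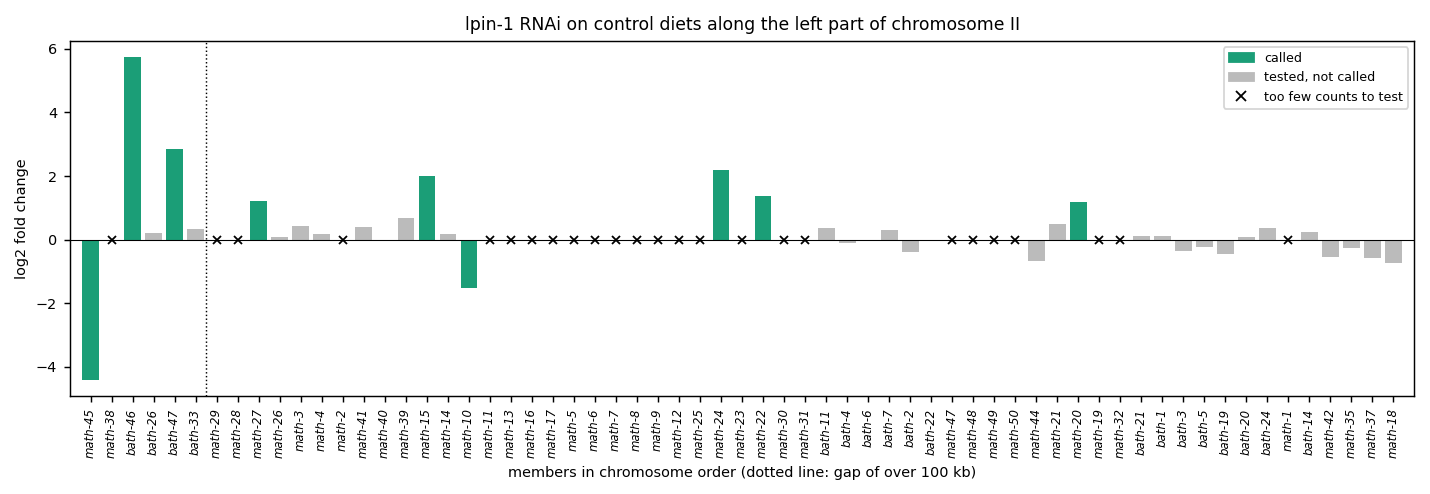
Log2 fold change for *lpin-1* RNAi on control diets (vertical axis) of the 63 members in the first 2 runs on chromosome II, in chromosome order and not to scale along the chromosome (horizontal axis). Green bars are called, grey bars were tested and not called, and crosses had too few counts to test. Called members stand among neighbours that were not called or had almost no counts.

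Fewer members were called with glucose-rich diets, and all of them were lower. In WT, 3 members fell (4.69%, against 1.78% of all genes) and 0 rose (against 1.35%). In *lpin-1(RNAi)* worms, 2 fell (3.12%, against 2.86%) and 0 rose (against 2.7%). By the adjusted p alone, 4 members fell in WT (6.25%, against 3.44% of all genes) and 0 rose (against 2.17%). The median log2 fold change over the members was -0.11 in WT and -0.12 in *lpin-1(RNAi)* worms, beside -0.00 over all genes in both. An unadjusted p under 0.05 was seen in 11 members in WT (17.2%, against 17.4% of all genes) and in 20 in *lpin-1(RNAi)* worms (31.2%, against 28.1%), shares near the background.

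In WT *bath-26* had 1.93, 3.05 and 2.55 CPM on control diets and 1.21, 1.23 and 0.780 CPM on glucose-rich diets. The groups did not overlap (-1.23 ± 0.24, adjusted p = 0.01), and the call held without any 1 of the 12 libraries. In *lpin-1(RNAi)* worms *bath-26* had 3.26, 2.53 and 3.03 CPM on control diets and 1.34, 1.67 and 1.51 CPM on glucose-rich diets (-0.96 ± 0.23, adjusted p = 0.014), short of the fold threshold.

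*bath-13*, a *bath* gene at II 2520842 to 2522060, had 1.16, 1.96 and 1.46 CPM in WT on control diets and 0.511, 0.770 and 0.634 CPM on glucose-rich diets (-1.23 ± 0.31, adjusted p = 0.034). *math-45*, given above, fell by 1.27 on the log2 scale in WT (adjusted p = 0.033). Neither group pair overlapped. Both calls depended on single libraries, since the adjusted p rose to as much as 0.128 and 0.123 when 1 was left out. The call on *bath-13* was lost in 6 of the 12 such fits (WT control diet replicates 2 and 3, each of the 3 WT glucose replicates, and *lpin-1(RNAi)* glucose replicate 1), and that on *math-45* in 5 (the same WT libraries).

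In *lpin-1(RNAi)* worms *math-41* (II 1824629 to 1830228) fell from 6.30, 6.85 and 6.48 CPM on control diets to 3.06, 1.84 and 3.22 CPM on glucose-rich diets, without overlap (-1.28 ± 0.25, adjusted p = 0.0042). In WT it had 4.10, 4.14 and 6.53 CPM and 3.58, 3.71 and 5.41 CPM (-0.22 ± 0.25, adjusted p = 0.71). The call held without any 1 library, but the counts were fractional. The sum with *math-3*, *math-26* and *math-27* did not pass the test (-0.04 ± 0.16, adjusted p = 0.90). *math-41* was the lowest of these genes in every *lpin-1(RNAi)* library, so a fall of *math-41* alone would be diluted in this sum. The sum cannot decide on the call of *math-41*. *math-46* fell by 1.42 in *lpin-1(RNAi)* worms (adjusted p = 0.038). This call was lost in 7 of 12 fits with 1 library left out, those without WT control replicate 1, any of the 3 *lpin-1(RNAi)* control replicates, WT glucose replicate 1, or *lpin-1(RNAi)* glucose replicates 1 or 2, with adjusted p up to 0.117.

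By the adjusted p alone, 9 members were lower with glucose in *lpin-1(RNAi)* worms (14.1%, against 7.49% of all genes) and 1 was higher (1.56%, against 5.52%). The 9 were *math-4*, *math-20*, *math-24*, *math-39*, *math-41*, *math-46*, *bath-13*, *bath-26* and *bath-47*, and the higher one was *bath-19*. *bath-47* was lower by both tests of glucose, with -0.84 ± 0.19 in WT (adjusted p = 0.022) and -0.98 ± 0.15 in *lpin-1(RNAi)* worms (adjusted p = 9.2e-04). *math-24* had -0.67 ± 0.17 (adjusted p = 0.017) and *math-20* had -0.63 ± 0.15 (adjusted p = 0.014) in *lpin-1(RNAi)* worms. These members are among those that rose with *lpin-1* RNAi on control diets, and both comparisons use the same *lpin-1(RNAi)* control diet libraries, so the values are given side by side with nothing read from their opposite signs.

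**Figure D5:**
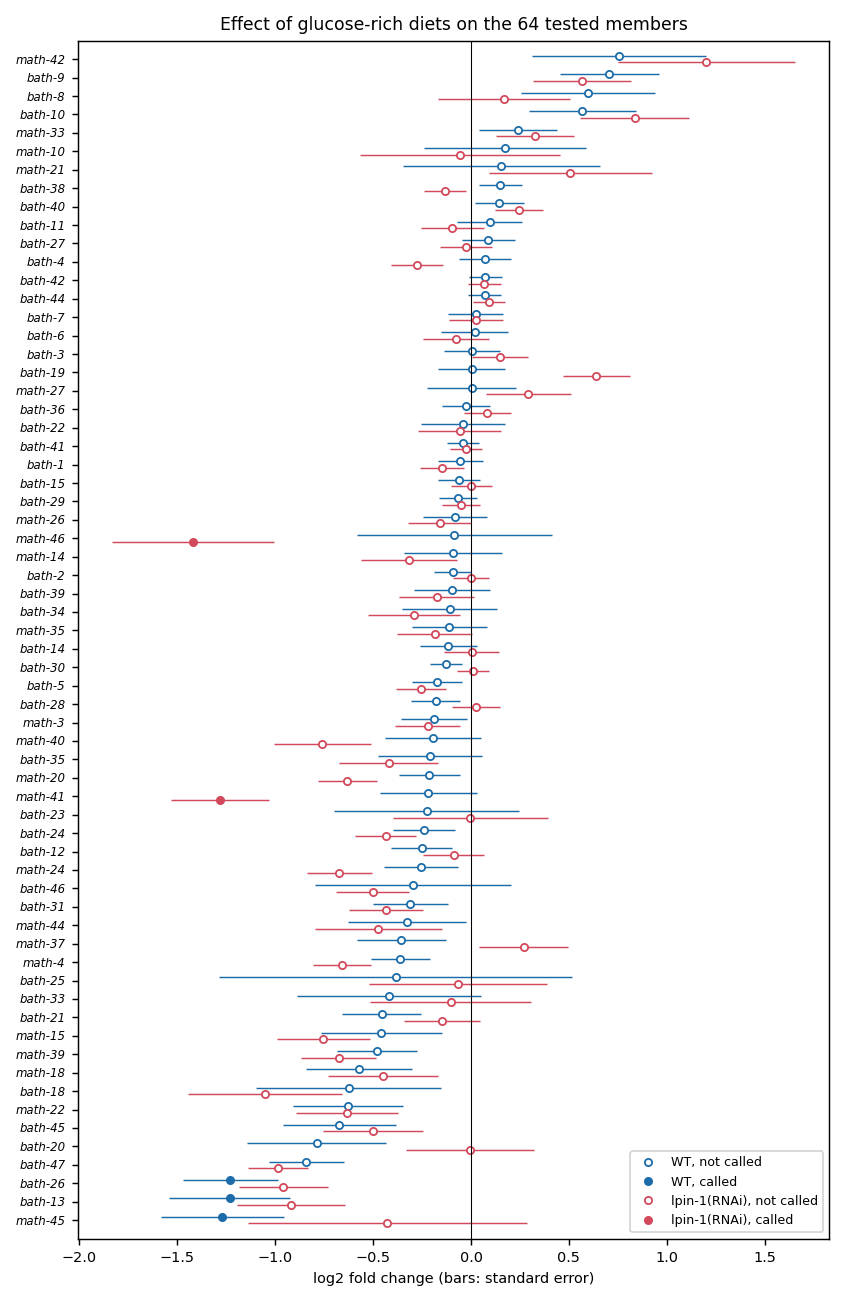
Log2 fold change (horizontal axis) of glucose-rich diets for the 64 tested members, ordered by the value in WT. Blue is WT, red is *lpin-1(RNAi)*, filled points are called and bars are standard errors. The 5 filled points all lie below 0, between -1.42 and -1.23.

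The interaction tests whether the glucose effect differed between WT and *lpin-1(RNAi)* worms. Here 0 of the 64 were called higher or lower by edgeR's quasi-likelihood test, where 0.81% of all genes were higher and 0.374% were lower. By the adjusted p alone 0 members were called, beside 1.05% of all genes higher and 0.558% lower. DESeq2 also called 0, and 2 members had an unadjusted p under 0.05 (3.12%, against 9.94% of all genes), *bath-19* (0.64 ± 0.24, adjusted p = 0.32) and *math-41* (-1.06 ± 0.35, adjusted p = 0.22).

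Genes of the CUL-3 ligases to which these adaptors belong were read as well. Of 14 genes of the ligase core and of neddylation, the modification that activates cullins, 0 were called in any of the comparisons, where at most 10.0% of all tested genes were called up and 5.61% down. With so few genes this is near the background. *cul-3*, the scaffold, had 215 ± 27.6 CPM in WT and 211 ± 38.5 CPM in *lpin-1(RNAi)* worms on control diets (SD, n = 3). By the adjusted p alone, *csn-1*, a subunit of the signalosome, which takes off the modifier, and *ned-8*, the modifier itself, were lower with *lpin-1* RNAi on control diets (*csn-1*, -0.20 ± 0.07, adjusted p = 0.04, and *ned-8*, -0.27 ± 0.10, adjusted p = 0.04). *ned-8* was also lower on glucose-rich diets (-0.35 ± 0.10, adjusted p = 0.014). These were 2 of the 14 on control diets and 1 of the 14 on glucose-rich diets, and 0 were higher. By that rule 19.8% and 15.8% of all genes were lower, so nothing is read from these genes.

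Among 25 tested BTB and MATH genes with other names, *lpin-1* RNAi on control diets called 2 up (8%, against 10.0% of all genes) and 1 down (4%, against 5.61%), shares near the background. *kel-8*, a kelch repeat gene, rose (log2 fold change 2.35 ± 0.15, adjusted p = 4.5e-08), as did *btb-21* (1.44 ± 0.26, adjusted p = 6.8e-04), while *btb-17* fell (-1.66 ± 0.24, adjusted p = 9.8e-05). On glucose-rich diets *kel-8* (2.45 ± 0.15, adjusted p = 5.7e-08) and *btb-17* (-1.79 ± 0.25, adjusted p = 9.0e-05) were called again. Glucose lowered *kel-10* in *lpin-1(RNAi)* worms (-1.14 ± 0.25, adjusted p = 0.0086). *mel-26* did not pass the test, with 228 ± 17.5 CPM in WT and 213 ± 17.3 CPM in *lpin-1(RNAi)* worms on control diets (SD, n = 3).

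Of 5 partners of MEL-26 and MATH-33, 0 were called, beside the same shares of all genes. *daf-16*, the FOXO transcription factor on which MATH-33 acts, passed the adjusted p alone, with 108 ± 5.20 CPM in WT and 145 ± 24.3 CPM in *lpin-1(RNAi)* worms on control diets (SD, n = 3). Its log2 fold change was 0.42 ± 0.11, adjusted p = 0.011 on control diets, and 0.40 ± 0.11, adjusted p = 0.018 on glucose-rich diets. It was 1 of the 5 partners, where 19.5% and 16% of all genes were higher by that rule, so nothing is read from it.

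Markers of several tissues differed between the RNAi groups. In whole worms, fewer cells of a type and less RNA per cell cannot be told apart. The summed level of 8 neuron markers was 253 to 283 CPM in the WT libraries and 410 to 475 CPM in the *lpin-1(RNAi)* libraries. *lpin-1* RNAi called 2 of the 8 up on control diets (25%, against 10.0% of all genes) and 1 with glucose (12.5%, against 8.04%). The sum over 7 hypodermis markers was 2144 to 2658 CPM in WT. In *lpin-1(RNAi)* worms it was 343 to 454 CPM on control diets and 825 to 1095 CPM with glucose. Here 2 and 1 of the 7 were called down (28.6% and 14.3%, against 5.61% and 4.2% of all genes). The median log2 fold change over the 7 was -1.07 and -0.31. The sum over 9 intestine markers was 40623 to 73923 CPM in WT and 28314 to 42433 CPM in *lpin-1(RNAi)* libraries. On each diet 3 of the 9 were called down (33.3%), and 1 was called up on control diets (11.1%). Each sum follows its most abundant genes. Of 15 germline and 7 body wall muscle markers 0 were called, and 0 of these markers had no count in any library. Without the fold threshold, 5 of the 15 germline markers were lower with *lpin-1* RNAi on control diets (against 19.8% of all genes). With glucose 3 of the 15 were lower (against 15.8%), and 0 were higher on either diet. Among the 7 muscle markers, 2 were lower on control diets (against 19.8%). A single muscle marker was higher with glucose (against 16%). The sum over sperm markers ran from 63.5 to 506 CPM, and 0 of the 31 tested were called. Their part in the changes of the members was not tested.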

How the data were processed

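RNA sequencing of 12 whole-worm libraries was analysed. The submitters' processing notes name STAR 2.7.0e, RSEM 1.3.1, DESeq2 1.22.2 and the builds WBcel235 and ce11. The authors deposited expected counts for 46778 genes without normalization, and rounding to whole numbers preceded the tests. Names came from the Ensembl 115 annotation, and those of 19 pseudogenes from RefSeq. The test was that of edgeR 4.0.16 (R 4.3.3) (filterByExpr with minimum count 10, TMM scaling, quasi-likelihood with 1 mean per group, 8 residual degrees of freedom). Intervals of count ratios are 95% exact binomial intervals and cover counting error alone. A simulation for *lpin-1* RNAi on control diets gave every gene the same spread and planted large changes in a small part of the genes. By the adjusted p alone, without the fold threshold, 98.5% of 197 changed genes were recovered and 4.90% of calls were false. The real data differ in these settings, so the rates do not carry over to the calls given here.

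Members described with every library were, for each comparison, the 8 called with the largest change without overlap between groups and with at least 10 counts in every library of the higher group, the 5 most abundant per kilobase, *math-33* and *bath-42*. Lack of overlap was thus a condition of this choice and adds no support to the calls. The share of all genes whose groups do not overlap is not given. *math-20*, the remaining member called for *lpin-1* RNAi, and the other members named were chosen after their values were seen. The members and gene lists were chosen with earlier results of these data known. Alternatives were DESeq2 1.42.0, RLE scaling, library totals alone, no filter, a prior count of 2, at least 10 counts in every library, the groups compared alone, the adjusted p alone, a replicate block and each library left out. The test held 11893 genes with at least 10 counts in every library and 20999 with no filter. Apart from the adjusted p alone, shares of all genes called are not given for the alternatives. Their counts of members are therefore not set against the background.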

Additional observations from a re-analysis of the deposited data

How the results depend on the processing

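The calls for *lpin-1* RNAi on *bath-46*, *bath-47*, *bath-25*, *math-24*, *math-15*, *math-22* and *math-45* held on both diets under DESeq2, RLE scaling, library totals alone, no filter, a prior count of 2, the groups compared alone and every library left out. Requiring 10 counts in every library removed low members and left 51 to test. It gave 5 up and 0 down on control diets, 4 up and 0 down on glucose-rich diets and 1 down with glucose in WT. With the groups compared alone, 1 fell with glucose in WT. In *lpin-1(RNAi)* worms the groups compared alone gave 1 down, library totals alone gave 5 down, no filter 4 down, and the adjusted p alone 9 down and 1 up. The adjusted p alone gave 6 and 5 down for *lpin-1* RNAi on control and glucose-rich diets. DESeq2 did not call *math-45* in WT (adjusted p = 0.077) or *math-46* in *lpin-1(RNAi)* worms (0.075) with glucose. Summing the 4 genes with divided reads, an alternative chosen after seeing the data, gave a sum under the fold threshold for *lpin-1* RNAi. A change of *math-27* alone is diluted in that sum. The cause of these differences was not tested except where the filter removed the gene.

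Leaving out 1 library at a time gave 1 to 3 members down and 0 up with glucose in WT, and 1 to 4 down and 0 up in *lpin-1(RNAi)* worms. It gave 8 to 10 up and 1 to 3 down for *lpin-1* RNAi on control diets, 7 to 9 up and 2 to 3 down on glucose-rich diets, and 0 in the interaction. The summed *math* level then ranged over 363 to 424 CPM and 399 to 411 CPM in WT on control and glucose-rich diets, and 488 to 566 CPM and 548 to 560 CPM in *lpin-1(RNAi)* worms. The summed *bath* level ranged over 861 to 876 CPM and 859 to 895 CPM in WT, and 853 to 855 CPM and 851 to 867 CPM in *lpin-1(RNAi)* worms.

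Library totals alone shifted the median log2 fold change of all genes by 0.25 and 0.23 for *lpin-1* RNAi on control and glucose-rich diets and by -0.10 for glucose in *lpin-1(RNAi)* worms. The summed *math* level then was 370 CPM in WT and 577 CPM in *lpin-1(RNAi)* worms with glucose, and the summed *bath* level was 819 and 798 CPM in WT and 955 and 898 CPM in *lpin-1(RNAi)* worms. RLE scaling gave 858 CPM for *bath* in *lpin-1(RNAi)* worms on control diets. *bath-42*, whose changes were near 0, changed sign under library totals alone and with 10 counts in every library. Under library totals alone it had -0.031 for glucose in *lpin-1(RNAi)* worms. For *lpin-1* RNAi it then had 0.25 on control diets (adjusted p = 0.044) and 0.19 on glucose-rich diets. With 10 counts in every library it had 0.017 and 0.018 for *lpin-1* RNAi and 0.0013 in the interaction. With 1 library left out its values ran from -0.0070 to 0.070 for glucose in *lpin-1(RNAi)* worms, from -0.061 to 0.034 and from -0.090 to 0.038 for *lpin-1* RNAi, and from -0.084 to 0.050 in the interaction. *math-33* did so in the interaction (-0.14 to 0.25 with 1 library left out).

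The groups share replicate numbers, and same-numbered libraries of different groups tended to deviate together. The correlation was positive in all 18 such pairs (mean r = 0.28, from 0.022 to 0.72). These pairs reuse the same 12 libraries and are not independent. The mean over 36 pairs of different number was -0.14. Deviations within a group add to 0, so this mean largely follows from the first and is no separate contrast. The main tests did not use the numbers, so any spread that same-numbered libraries share is not modelled there. With the replicate number as a block, 1 member, *math-41*, was called lower in the interaction, against 0 without it. The other counts of members did not move. Precision is limited by 3 libraries a group and, for *bath-25*, *math-46*, *math-10* and *math-45*, by low counts.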
